A study of Homo sapiens with 6 samples.

Results

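The 7 genes described here encode the core factors of cytosolic translation elongation, namely EEF1A1, EEF1A2, EEF1B2, EEF1D, EEF1G, EEF2 and the kinase gene EEF2K. They were found by symbol among the 46427 rows of the gene count table, and all 7 were present once. The set was selected on the measured difference between CCN3 knockdown and control cells in these same counts, so each comparison of its members between the groups is given as a description, without a p-value. The libraries came from Hs578T, a triple-negative breast cancer cell line with mesenchymal features, grown in DMEM with 10% serum. Control cells (shCTRL) carried a control shRNA and knockdown cells (shCCN3) carried CCN3 shRNA #2, both delivered by the retroviral vector pSUPER, with 3 libraries per group. CCN3 is a secreted matricellular protein. The paper states that control and knockdown clones were obtained by puromycin selection. Each group carried a single shRNA. Effects of the CCN3 loss, of the shRNA sequence and of other differences between the selected cells cannot be told apart. The submitters describe the 3 libraries of a group as independent biological replicates, and whether these were separate transductions or cultures of the same transduced cells is not given in the sources used here.

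Elongation adds amino acids to a growing peptide. eEF1A, bound to GTP, carries aminoacyl-tRNA to the ribosome, and the eEF1B complex of the EEF1B2, EEF1D and EEF1G products recharges eEF1A with GTP. eEF2 then moves the ribosome along the mRNA by a codon, and eEF2K, a calcium/calmodulin-dependent kinase, phosphorylates eEF2 and slows this step. eEF1A is made from a pair of paralogous genes: EEF1A1 is active in nearly all cells, whereas EEF1A2 is known from neurons and from skeletal and heart muscle, and its expression has been described in several cancers, including those of the breast.

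Because EEF1A1 and EEF1A2 encode nearly the same protein, the separation of their reads depends on their nucleotide sequence. The coding sequences of 1389 bases (EEF1A1) and 1392 bases (EEF1A2) were 78.0% identical over 1392 aligned columns, and 252 of the 303 mismatched columns (83.2%) lay at base 3 of a codon. The third codon base was G or C in 48.2% of EEF1A1 codons and in 89.0% of EEF1A2 codons. The 90-base coding windows that were most and least alike are shown because they mark the range of that difference. Capitals mark the bases that differ between the paralogues, and both genes lie on the minus strand of GRCh38 in GENCODE release 29. The most alike window, bases 376 to 465 of both coding sequences, lies in exon 4 and differed at 13 bases (EEF1A1 chr6:73519088-73519177, EEF1A2 chr20:63494961-63495050).
EEF1A1 coding bases 376 to 465: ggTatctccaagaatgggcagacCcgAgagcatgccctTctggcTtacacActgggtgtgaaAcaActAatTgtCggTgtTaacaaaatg
EEF1A2 coding bases 376 to 465: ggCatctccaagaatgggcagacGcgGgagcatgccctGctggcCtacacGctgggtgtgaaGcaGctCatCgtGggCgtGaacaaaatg
The least alike window, bases 637 to 726, lies in exon 5 and differed at 27 bases (EEF1A1 chr6:73518744-73518833, EEF1A2 chr20:63493183-63493272).
EEF1A1 coding bases 637 to 726: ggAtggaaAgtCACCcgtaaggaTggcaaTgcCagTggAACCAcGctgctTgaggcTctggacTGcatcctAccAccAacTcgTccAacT
EEF1A2 coding bases 637 to 726: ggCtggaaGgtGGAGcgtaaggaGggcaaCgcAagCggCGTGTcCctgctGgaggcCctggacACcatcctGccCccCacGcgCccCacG
The longest identical run between the coding sequences was 20 bases. None of the 1965 stretches of 50 bases in the EEF1A2 transcript occurred in a transcript of another gene, EEF1A1 and its processed pseudogenes included. Of the 2254 such stretches in EEF1A1, 57.2% occurred elsewhere, mainly in its pseudogenes EEF1A1P5 and EEF1A1P6.

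The promoters of the members differed in their start sequence. RefSeq starts (GRCh38.p14) were used for 5 of the 7 genes, and EEF1B2 had 2 starts. No starts of EEF1A2 and EEF1D were used. A C within the first 5 transcribed bases followed directly by at least 4 further C or T, the form that opens a terminal oligopyrimidine (TOP) mRNA, was searched on the transcribed strand. The motif TATANA was searched between 40 and 16 bases before the start, on the transcribed strand in the members and on both strands over all RefSeq promoters. Both motifs were chosen after the windows had been seen. EEF1A1, EEF2 and the downstream start of EEF1B2 held both, as printed here from 40 bases before to 20 bases after the start, with TATANA and the pyrimidine run in capitals. TOP mRNAs are known for translation that depends on mTORC1.
EEF1A1 (chr6:73521013-73521072, minus strand): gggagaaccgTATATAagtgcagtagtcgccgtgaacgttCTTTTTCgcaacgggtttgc
EEF2 (chr19:3985444-3985503, minus strand): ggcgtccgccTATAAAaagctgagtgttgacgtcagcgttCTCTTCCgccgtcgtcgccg
EEF1B2 (chr2:206159855-206159914, plus strand): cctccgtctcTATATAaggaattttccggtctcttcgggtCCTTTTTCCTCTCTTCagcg
In all 3 windows the run began at the first transcribed base, and TATANA began 30 bases before it. The upstream start of EEF1B2 and those of EEF1G and EEF2K held neither motif. Among 35116 RefSeq promoters, 12.2% held the pyrimidine start and 4.24% held TATANA.

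The libraries held between 56159110 and 68393177 counts, and 17419 genes passed the filter on low counts, all 7 members among them. Levels are given as CPM (counts scaled to a library of common size) after TMM scaling, and 3 counts in a library corresponded to 0.0435 to 0.0540 CPM. CCN3 itself fell from 100.9 ± 2.43 to 47.0 ± 0.469 CPM (SD, n = 3 per group; log2 fold change -1.10 ± 0.055 SE, adjusted p = 1.34e-06 by the edgeR quasi-likelihood test). In an exact permutation test of 3 libraries against 3, the smallest p possible is 0.1. shCCN3 replicate 2 stood apart from the other shCCN3 libraries, with a chi-square of 38.1 and 46.5 per degree of freedom against them and of 9.98 between those, and values of the members without it are given where they differ. Of the mesenchymal markers, all 5 were expressed, with a summed level of 13099 to 13218 CPM in shCTRL and 12310 to 12517 CPM in shCCN3 libraries. VIM, CD44 and SPARC were lower in all shCCN3 than in all shCTRL libraries, where 46.3% of all genes tested did not overlap. FN1 (2161 to 2478 CPM in shCTRL, 2209 to 3020 CPM in shCCN3) and ZEB1 (43.8 to 56.3 CPM in shCTRL, 45.1 to 61.5 CPM in shCCN3) overlapped between the groups. Of the 7 luminal markers, 3 (ESR1, EPCAM and CDH1) were below 1 CPM in every library, while KRT18 was at 156.0 to 263.1 CPM. KRT8 was at 13.5 to 21.3, PGR at 2.66 to 4.57 and GATA3 at 0.558 to 1.19 CPM. Of the markers of cell types known for EEF1A2, all 6 skeletal muscle genes were below 1 CPM in every library, and of 6 neuronal genes RBFOX3, STMN2 and NEFL had no counts in any and SYP was below 1 CPM. TUBB3 and SNAP25 were expressed and went in opposite directions. TUBB3 was higher in all shCCN3 libraries (388.6 to 437.0 CPM) than in all shCTRL libraries (334.0 to 368.5 CPM). SNAP25 was at 4.65 ± 0.476 CPM in shCTRL and 3.15 ± 0.601 CPM in shCCN3 cells (SD, n = 3 per group). It fell by 0.56 on the log2 scale (adjusted p = 0.0256 by edgeR), in the same direction as EEF1A2. The part of either gene in the values of EEF1A2 was not tested. In bulk RNA, fewer cells with a transcript and less transcript per cell cannot be told apart.

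EEF1A2 mRNA was far lower in shCCN3 than in shCTRL cells, in all libraries. It was 136.3, 143.8 and 155.2 CPM in shCTRL replicates 1, 2 and 3. In shCCN3 replicates 1, 2 and 3 it was 6.91, 8.55 and 6.72 CPM. The groups did not overlap, and the gap between them was much wider than the spread within either. These levels rested on 9035 to 10417 reads per shCTRL library and on 430 to 476 reads per shCCN3 library, so EEF1A2 remained detected in all 3. The mean of 7.39 ± 1.01 CPM (SD, n = 3) in shCCN3 cells was 19.7-fold lower than the 145 ± 9.52 CPM (SD, n = 3) of shCTRL cells. The fitted log2 fold change was -4.30 (standard error 0.106), and lay between -4.41 and -4.24 with each library left out in turn.

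Few genes of comparable level in shCTRL cells fell as far. Only falls were ranked, among genes chosen by their shCTRL level, so genes that rose from a low shCTRL level are not covered. Of the 13531 genes with a mean of at least 1 CPM in shCTRL cells, 23 had a lower log2 fold change than EEF1A2. With a mean of at least 10 CPM, 6 of 9768 genes did, and with at least 50 CPM none of 4285. Among the 2126 genes of at least 100 CPM, the next lowest log2 fold changes were those of ADAMTS14 (-2.79), PDGFRA (-2.57) and SNED1 (-2.19). These ranks describe the gene that gave the set its name and carry no test.

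**Figure D1:**
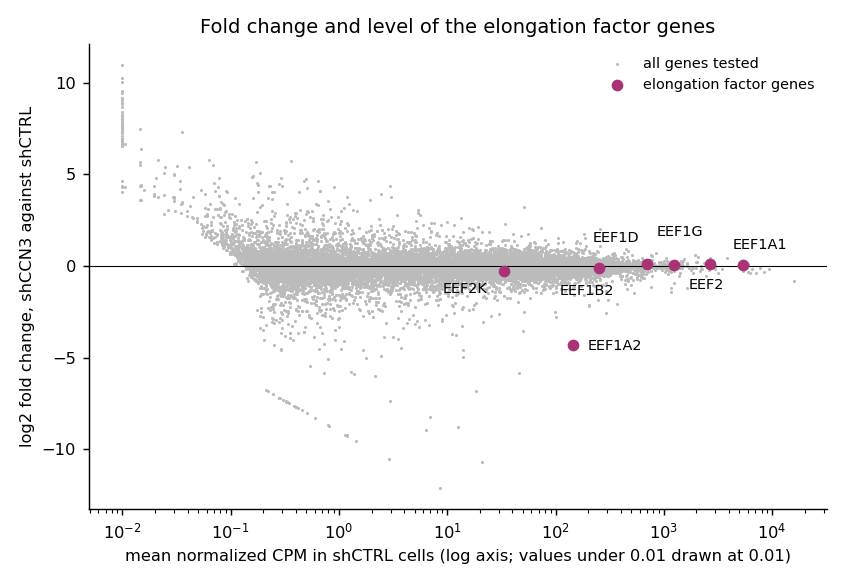
Log2 fold change of shCCN3 against shCTRL cells (vertical axis) against the mean shCTRL level in TMM-scaled CPM (horizontal log axis), with 1 point per tested gene and the 7 elongation factor genes named. EEF1A2 lies at -4.30 and 145 CPM, below every other gene of at least 50 CPM, while the other 6 members lie between -0.29 and 0.11. Fitted values of genes with no counts in a group depend on the prior count of the fit.

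EEF1A1, the main source of eEF1A, was 5336, 5445 and 5453 CPM in shCTRL replicates 1, 2 and 3. It was 5479, 5724 and 5436 CPM in shCCN3 replicates 1, 2 and 3. The groups overlapped, since shCCN3 replicate 3 was below 2 of the shCTRL libraries. The means were 5412 ± 65.5 and 5546 ± 155 CPM (SD, n = 3 each), and the log2 fold change was 0.04 (standard error 0.046). It was 0.02 without shCCN3 replicate 2, the library with the highest value.

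The part of EEF1A2 in the combined eEF1A mRNA was small in both groups. Of the reads on EEF1A1 and EEF1A2, EEF1A2 took 2.49%, 2.57% and 2.77% in shCTRL replicates 1, 2 and 3. It took 0.126%, 0.149% and 0.124% in shCCN3 replicates 1, 2 and 3. The shares did not overlap between groups, with means of 2.61 ± 0.142% and 0.133 ± 0.0141% (SD, n = 3 each). The 95% Wilson intervals, which cover counting error only, ran from 2.44% to 2.54% in shCTRL replicate 1 and from 0.115% to 0.138% in shCCN3 replicate 1. Per length of transcript the shares were 2.97 ± 0.161% and 0.152 ± 0.0162% (SD, n = 3 each). The sum of EEF1A1 and EEF1A2 was 5557 ± 73.6 CPM (SD, n = 3) in shCTRL and 5554 ± 156 CPM (SD, n = 3) in shCCN3 libraries, a difference smaller than the spread within either group.

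Part of the EEF1A1 signal may lie in pseudogene rows. The table held 37 rows named as EEF1A1 pseudogenes, and together they had 17.5% to 20.2% as many counts as EEF1A1 itself. EEF1A1P5 was the highest, at a mean of 694.3 CPM in shCTRL and 694.0 CPM in shCCN3 cells. EEF1A1P6 was next, at 253.6 and 261.4 CPM. How reads that match several copies were assigned is not given in the sources used here, so the split between EEF1A1 and these rows is uncertain. With the rows added to EEF1A1, its log2 fold change was 0.03 (standard error 0.048), and the EEF1A2 share was 2.20% in shCTRL and 0.112% in shCCN3 cells. No row of the table was named as a pseudogene of EEF1A2, EEF2 or EEF2K.

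The 3 subunits of the eEF1B exchange complex overlapped between the groups. EEF1B2 encodes the alpha subunit, which carries the exchange activity. It was 243.2, 253.1 and 258.7 CPM in shCTRL replicates 1, 2 and 3, and 224.4, 260.9 and 210.9 CPM in shCCN3 replicates 1, 2 and 3. shCCN3 replicates 1 and 3 were below all shCTRL libraries, and replicate 2 was above them. The log2 fold change was -0.12 (standard error 0.081), and -0.21 without shCCN3 replicate 2. EEF1D encodes the delta subunit, also an exchange factor. It was 639, 679 and 760 CPM in shCTRL and 714, 856 and 678 CPM in shCCN3 replicates 1, 2 and 3. EEF1G, the gamma subunit with a structural role, was 1189, 1232 and 1340 CPM in shCTRL and 1255, 1423 and 1167 CPM in shCCN3 replicates 1, 2 and 3. In both genes the highest value was that of shCCN3 replicate 2. The log2 fold change of EEF1D was 0.11 (standard error 0.097), and 0.01 without that library. That of EEF1G was 0.03 (standard error 0.081), and -0.05 without it.

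Transcripts of EEF1G and EEF1B2 share sequence with other gene models. Of the 50-base stretches of EEF1G, 98.7% occurred in another gene, chiefly in AP002990.1, a gene model that overlaps EEF1G. For EEF1B2 it was 59.4%, mainly its pseudogenes. The 7 rows named as EEF1B2 pseudogenes held 0.409% to 0.593% as many counts as EEF1B2. EEF1D shared 5.10%, EEF2K 1.76% and EEF2 none of its 50-base stretches.

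EEF2, the translocation factor, was 2588, 2705 and 2706 CPM in shCTRL replicates 1, 2 and 3. It was 2935, 2800 and 2811 CPM in shCCN3 replicates 1, 2 and 3. All shCCN3 libraries were above all shCTRL libraries, by a small margin, with means of 2849 ± 74.9 and 2666 ± 67.8 CPM (SD, n = 3 each). The log2 fold change was 0.10 (standard error 0.049) and lay between 0.07 and 0.11 with each library left out in turn.

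EEF2K, the kinase that inhibits eEF2, was 33.5, 34.9 and 31.1 CPM in shCTRL replicates 1, 2 and 3. It was 28.1, 25.4 and 27.7 CPM in shCCN3 replicates 1, 2 and 3. All shCCN3 libraries were below all shCTRL libraries, with means of 27.0 ± 1.43 and 33.2 ± 1.93 CPM (SD, n = 3 each). The log2 fold change was -0.29 (standard error 0.074), between -0.34 and -0.25 with each library left out. The ratio of EEF2 to EEF2K mRNA per length of transcript was 188 ± 13.0 in shCTRL and 246 ± 10.2 in shCCN3 cells (SD, n = 3 each). Its lowest shCCN3 value, 237, was above its highest shCTRL value, 203.

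**Figure D2:**
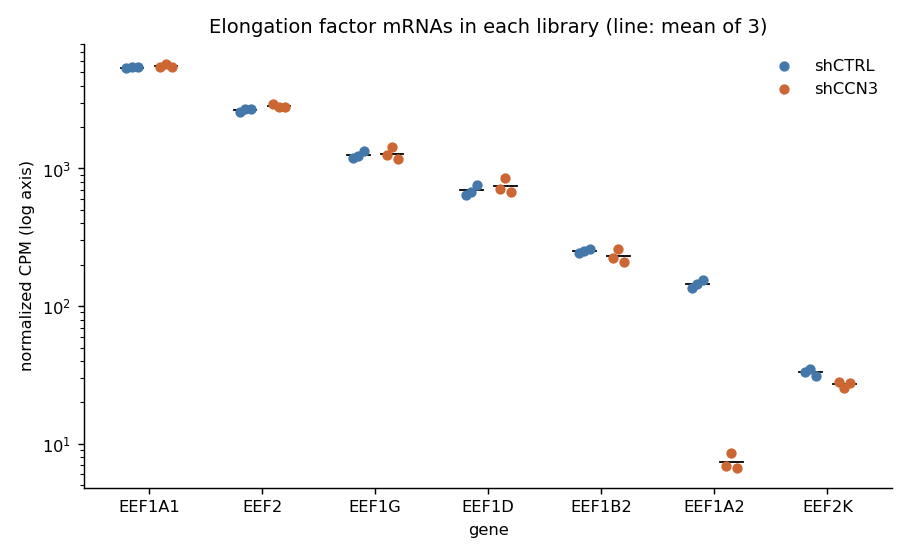
TMM-scaled CPM (log axis) of the 7 elongation factor genes in each library, with 1 point per library and a line at the mean of the 3 libraries of a group. Only the EEF1A2 points of the groups are widely separated, at 136.3 to 155.2 CPM in shCTRL and 6.72 to 8.55 CPM in shCCN3 cells, while the EEF2 and EEF2K points are separated by narrow gaps.

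Of the 7 members, 2 (EEF1A2 and EEF2K, both lower) were called, meaning an adjusted p under 0.05 in edgeR's quasi-likelihood test, where 33.4% of all genes tested did, 16.2% higher and 17.3% lower in shCCN3 cells. Since the same contrast chose the members, nothing is read from that count. Without shCTRL replicate 2, EEF2K was not among them (log2 fold change -0.25), and without shCCN3 replicate 2, EEF1B2 was added (-0.21). The groups did not overlap for 3 members (EEF1A2, EEF2 and EEF2K), while 46.3% of all genes tested did not overlap. The 7 genes together held 1.04 ± 0.0158% of all counts in shCTRL and 1.08 ± 0.0224% in shCCN3 libraries (SD, n = 3 each).

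Levels of different genes were compared as CPM per kilobase of transcript. In shCTRL cells the order was EEF1A1 (2350 ± 28.4), EEF2 (843 ± 21.4), EEF1G (823 ± 51.2), EEF1D (314 ± 27.9), EEF1B2 (298 ± 9.26), EEF1A2 (72.1 ± 4.73) and EEF2K (4.49 ± 0.262 CPM per kb, SD, n = 3 each). EEF2 and EEF1G did not differ beyond their spread, and nor did EEF1D and EEF1B2. The place of EEF1D depended on the transcript taken, with 291 to 751 CPM per kb over its annotated lengths, whereas EEF1A1 stayed the highest at 1219 to 2814. In shCCN3 cells the order of the first 5 was kept (2408, 900, 842, 340 and 275 CPM per kb). EEF1A2, at 3.67 ± 0.499, and EEF2K, at 3.66 ± 0.194 CPM per kb (SD, n = 3 each), did not differ there beyond their spread. The EEF1B2 to EEF1G ratio per kilobase was 0.363 ± 0.0126 in shCTRL and 0.327 ± 0.00420 in shCCN3 cells (SD, n = 3 each).

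EEF1A2 lies on chromosome 20 of GRCh38 from 63488012 to 63499322, minus strand, and no other annotated gene overlaps it. Within 1 Mb, 41 other genes were tested, with a median log2 fold change of -0.04, and 2 were called higher and 10 lower, where 16.2% and 17.3% of all genes tested were. Some of the 10 lay at the edges of that window and are named after their values were seen. SLCO4A1 fell by 0.85 (adjusted p = 5.23e-05 by edgeR), and its antisense gene SLCO4A1-AS1 was at 0.295 ± 0.113 CPM in shCTRL and 0.0354 ± 0.0322 CPM in shCCN3 cells (SD, n = 3 per group). OPRL1 was also low, at 0.761 ± 0.156 and 0.333 ± 0.0891 CPM (SD, n = 3 per group). The median of the 444 tested genes of chromosome 20 was -0.12. The nearest neighbours before it, ARFGAP1 (-0.02, adjusted p = 0.869) and YTHDF1 (0.02, adjusted p = 0.853), did not pass edgeR's quasi-likelihood test, and nor did GID8 (0.06), DIDO1 (0.00) and TCFL5 (-0.05). SLC17A9 fell by 0.30 (adjusted p = 0.00585 in that edgeR test). Beyond it, PPDPF fell by 0.56 on the log2 scale (adjusted p = 0.00177 in that edgeR test) and HELZ2 rose by 0.60 (adjusted p = 0.00122 in that edgeR test), while GMEB2 (0.14), MHENCR (0.02) and STMN3 (-0.28) did not pass. The start coordinate of the uncharacterized locus LOC102723814 lies 29.2 kb from that of EEF1A2, which is not the gap between the genes. The locus had 26, 13 and 11 counts in shCTRL replicates 1, 2 and 3. In shCCN3 replicates 1, 2 and 3 it had 0, 0 and 2 counts. Its groups did not overlap, at counts too low for a useful fold change.

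**Figure D3:**
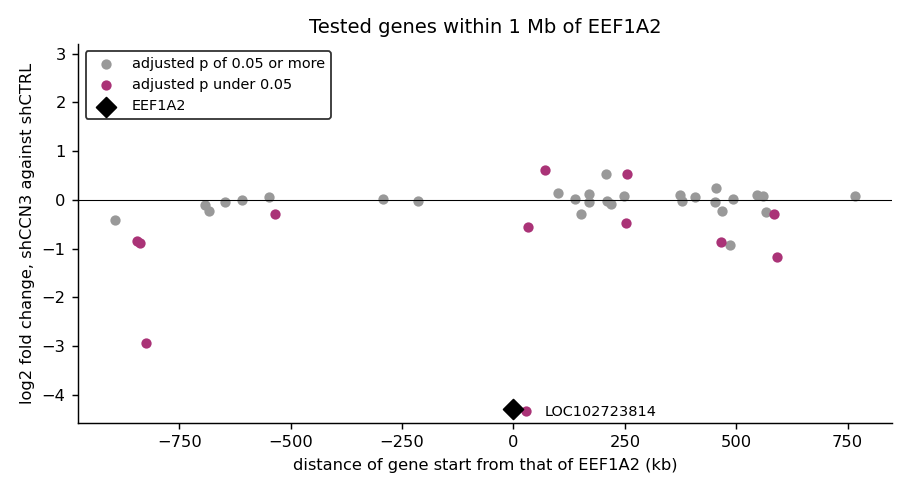
Log2 fold change of shCCN3 against shCTRL cells for the tested genes within 1 Mb of EEF1A2, by the distance between gene starts in kilobases, coloured by edgeR's adjusted p. EEF1A2 lies at -4.30, and the 41 other genes have a median of -0.04. The point beside EEF1A2, LOC102723814, rests on 26 counts at most in a library.

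The other members lie on separate chromosomes. EEF1A1 is on chromosome 6 from 73515750 to 73523797 (minus strand), EEF2 on chromosome 19 from 3976056 to 3985469 (minus strand) and EEF2K on chromosome 16 from 22206282 to 22288732 (plus strand). EEF1B2 is on chromosome 2 from 206159585 to 206162928 (plus strand), EEF1G on chromosome 11 from 62559601 to 62574086 (minus strand) and EEF1D on chromosome 8 from 143579697 to 143599541 (minus strand). The 12 nearest tested genes of each had median log2 fold changes between -0.24 (EEF1G) and 0.19 (EEF1D). Of the 12 of EEF1G, 1 was called higher and 5 lower. For EEF1A1, EEF1B2, EEF1D, EEF2 and EEF2K, at most 2 of the 12 were called higher and at most 2 lower. Of all genes tested, 16.2% were called higher and 17.3% lower, and nothing is read from these small counts. EEF1A1, at 0.04, lies on a chromosome whose 891 tested genes had a median of 0.34, and 412 of them (46.2%) were called higher. Its own 12 neighbours had a median of -0.06. EEF1A1 (AL121972.1), EEF1B2 (NDUFS1), EEF1D (TIGD5 and others) and EEF2K (AC009034.1) are overlapped by genes on the opposite strand. Whether the counting used the strand is not given in the sources used here.

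Of 13 genes for direct partners of eEF1 and for other cytosolic elongation or rescue factors, 5 rose in shCCN3 cells and none fell (38.5% called). Of all genes tested, 33.4% were called, 16.2% higher and 17.3% lower. The median log2 fold change of the 13 genes was 0.06, and that of all genes 0.01. GTPBP2, a GTPase of ribosome rescue, rose from 44.6 ± 0.685 to 74.3 ± 3.60 CPM (SD, n = 3 per group), by 0.74 on the log2 scale (SE 0.061, adjusted p = 2.41e-05 in edgeR). VARS1, the valyl-tRNA synthetase that binds eEF1B, rose by 0.64 (adjusted p = 3.89e-05 in that edgeR test). EEF1E1, a scaffold of the multisynthetase complex also called p18, rose by 0.44 (adjusted p = 0.00433 in that edgeR test). The other two were HBS1L, a rescue GTPase, at 0.35 (adjusted p = 0.00352), and the GTPase gene GTPBP1 at 0.28 (adjusted p = 0.0134, both from edgeR), which are named to complete the count. GTPBP1 did not pass without shCTRL replicate 3 or without shCCN3 replicate 1, and with each library left out in turn between 4 and 7 genes were called, 7 of them without shCCN3 replicate 2. DESeq2 called 6. GTPBP2, VARS1, EEF1E1 and HBS1L all lie on chromosome 6, whose median log2 fold change was 0.34, and the part of the chromosome in these values was not tested. ZPR1, a zinc finger protein that binds eEF1A, was at -0.18 (adjusted p = 0.0629). TPT1, which binds eEF1A and eEF1B, was at 0.13 (adjusted p = 0.244). EIF5A, which relieves stalled ribosomes at proline-rich stretches, was at 0.03 (adjusted p = 0.777) and its paralogue EIF5A2 at 0.05 (adjusted p = 0.675, all from edgeR).

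Of 15 genes for the methyltransferases of eEF1A and eEF2, the diphthamide pathway of eEF2 and the hypusine pathway of eIF5A, 1 rose and 2 fell (3 of 15 called, against 33.4% of all genes), with a median log2 fold change of -0.0046. DPH2, of the first step of diphthamide synthesis, fell by 0.32 (adjusted p = 0.00626 by edgeR). DPH5, the diphthamide methyltransferase, fell by 0.23 (adjusted p = 0.0327 in that edgeR test). EEF1AKMT4, an eEF1A lysine methyltransferase, rose by 0.42 (adjusted p = 0.0343 in that edgeR test). The 12 tested genes nearest to DPH2, DPH5 and EEF1AKMT4 had median log2 fold changes of -0.23, -0.32 and 0.01. The part of these regions in the values was not tested. Without shCTRL replicate 1, 2 or 3 or shCCN3 replicate 1, DPH2 alone of the list passed, a count of 1.

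The 20 genes for proteins that act on eEF2K, namely calmodulins, the mTORC1 and S6 kinase branch, AMPK subunits, a p38 kinase, PP2A catalytic subunits and the ubiquitin ligase receptor BTRC, had 2 members that rose and 2 that fell (4 of 20 called, against 33.4% of all genes), with a median of -0.11. RPTOR, the mTORC1 scaffold Raptor, fell from 96.9 ± 4.20 to 70.5 ± 2.54 CPM (SD, n = 3 per group), by 0.46 on the log2 scale (SE 0.061, adjusted p = 0.000428 in edgeR). RPS6KA1, which encodes the kinase RSK1, fell by 0.26 (adjusted p = 0.0251 in that edgeR test). PRKAB2, a regulatory subunit of AMPK, rose by 0.52 (adjusted p = 0.00112 in that edgeR test). BTRC, which directs eEF2K to degradation, rose by 0.23 (adjusted p = 0.0495 in that edgeR test), a call kept in only 5 of 13 other fits and lost with limma-voom, without the filter on low counts, with the replicate block and in 5 of the fits that left out a library. Between 2 and 8 genes of the list passed with a library left out, 2 without shCTRL replicate 2, shCCN3 replicate 1 or shCCN3 replicate 3, and 8 without shCCN3 replicate 2. RPTOR and PRKAB2 passed in all of these fits, and RPS6KA1 in 9 of the 13 other fits in all. The 12 tested genes nearest to RPS6KA1 had a median log2 fold change of -0.39. Those nearest to RPTOR, PRKAB2 and BTRC had medians of -0.02, 0.04 and -0.05. The part of these regions in the values was not tested.

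The 5 genes listed as mitochondrial elongation factors act on a separate ribosome. GUF1, a GTPase related to the bacterial factor LepA, rose by 0.27 (adjusted p = 0.0111 by edgeR). TUFM, the mitochondrial counterpart of eEF1A, was at -0.02, and TSFM, its exchange factor, at 0.15. GFM1, the counterpart of eEF2, and its paralogue GFM2 were at 0.04 each. These 4 did not pass the test, with adjusted p between 0.313 and 0.849 in edgeR.

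**Figure D4:**
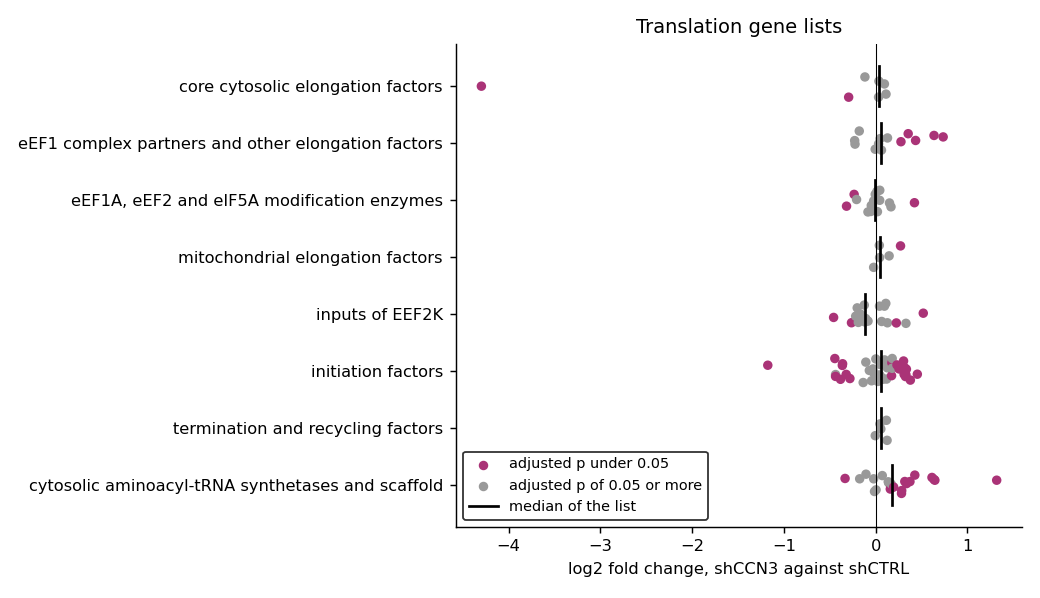
Log2 fold change of shCCN3 against shCTRL cells for the genes of 8 translation lists, with 1 point per gene coloured by edgeR's adjusted p and a line at the median of each list. Apart from EEF1A2 at -4.30, the genes lie between -1.18 (EIF4E3) and 1.32 (WARS1), and the list medians lie between -0.11 (inputs of EEF2K) and 0.18 (aminoacyl-tRNA synthetases).

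The genes whose levels followed EEF1A2 most closely were found by Pearson's r of log2 CPM over the 6 libraries, among 13632 genes. They were CAMK2N1, an inhibitor of the kinase CaMKII (log2 fold change -1.60), the secreted protease gene HTRA1 (-1.83), PLAU, which encodes urokinase (-1.22), ENTPD6, a nucleotidase gene (-0.66), and KYNU, of tryptophan breakdown (-2.12). Their r with EEF1A2 lay between 0.99939 and 0.99990. The 3 libraries of a group share an shRNA, and the groups lie far apart in EEF1A2, so that r follows mainly the difference between them.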

How the data were processed

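The authors extracted total RNA, prepared libraries with a stranded mRNA kit and deposited raw read counts per gene, 1 column per library, without normalization. The submitters' processing notes name GRCh38, bcl2fastq 2.20.0, Trimmomatic, HISAT2 2.1.0, StringTie 2.1.3d and DESeq2, and their settings and the use of strand in counting are not given in the sources used here. Groups came from the sample labels. The counts were scaled with TMM factors and fitted with edgeR 4.0.16 in R 4.3.3 over all genes left by edgeR's filter on low counts (17419 genes), with the quasi-likelihood test and Benjamini-Hochberg adjustment. The scripts were tested on simulated data. A gene was called at an adjusted p under 0.05. No block was used. P-values set the difference between the groups against the spread between the 3 libraries of a group. That spread does not cover differences between shRNAs, and whether it covers separate transductions is not given.

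The members and lists were chosen with earlier results of these data known. Genes were named by rule: the members, their pseudogenes, the nearest 6 tested genes on each side of a member (named in full for EEF1A2 only and summarized for the others), every gene of lists of 6 or fewer, otherwise the 3 largest called changes in each direction at a mean of at least 1 CPM, direct partners of eEF1A, and the 5 genes most like EEF1A2. METTL13 was matched under a newer symbol. Sequences, positions and lengths came from GENCODE release 29 and RefSeq. The alternatives were DESeq2 size factors, upper-quartile normalization, no filter, a minimum of 10 counts in each library, the replicate block, DESeq2 1.42.0, limma-voom (limma 3.58.1), pseudogene rows added to their parents, and each library left out.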

Additional observations from a re-analysis of the deposited data

How the results depend on the processing

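CCN3 kept its direction and its call in all 13 other fits. The log2 fold change of EEF1A2 lay between -4.41 and -4.24 over them. No pairing by replicate number was visible, as the deviations of same-numbered libraries correlated at 0.12, -0.14 and -0.27. With 3 libraries per group, these values cannot exclude a pairing. With the replicate block, 4887 genes were called against 5825 without it, EEF1A2 was at -4.30, and 2 of the 7 members were called. With each library left out in turn, between 4181 and 7229 genes were called, 1 to 3 of the 7 members, 1 to 3 of the modification enzymes and 2 to 8 of the inputs of EEF2K, and the log2 fold change of EEF1A1 ranged from 0.02 to 0.05. With pseudogene rows added to EEF1A1, the EEF1A2 share was 2.20% in shCTRL and 0.112% in shCCN3 cells. With 3 counts worth at most 0.0540 CPM, depth did not limit the members, and it did limit LOC102723814.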

Other observations

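Outside elongation, the cytosolic aminoacyl-tRNA synthetases, which charge the tRNAs that eEF1A delivers, held more called genes than the elongation lists. Of 22 genes, 12 rose and 1 fell in shCCN3 cells (59.1% called, against 33.4% of all genes), with a median log2 fold change of 0.18. All lists were chosen with earlier results of these data known, and the share over all genes was not matched for level. VARS1 is also counted among the partners of eEF1. WARS1, the tryptophanyl-tRNA synthetase and also an interferon-responsive gene, rose from 117.4 ± 2.42 to 292.9 ± 4.71 CPM (SD, n = 3 per group), by 1.32 on the log2 scale (adjusted p = 3.93e-07 in edgeR's quasi-likelihood test). KARS1 rose by 0.65 (adjusted p = 3.78e-05 in that edgeR test), and VARS1 by 0.64. FARSB, a subunit of the phenylalanyl-tRNA synthetase, fell by 0.33 (adjusted p = 0.00326 in that edgeR test). The 12 tested genes nearest to KARS1 and VARS1 had median log2 fold changes of 0.38 and 0.34. Those nearest to WARS1 and FARSB had medians of -0.12 and 0.17. The part of these regions in the values was not tested. With each library left out in turn, between 10 and 14 of the 22 passed.

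Against 33.4% of all genes called (16.2% higher and 17.3% lower), 45.5% of 44 genes for initiation factors and their regulators were called. Of these 44, 12 rose and 8 fell, with a median log2 fold change of 0.06. Between 14 and 24 of them passed with each library left out, 24 without shCCN3 replicate 2. EIF2S2 and EIF2S3, subunits of the eIF2 complex that brings the initiator tRNA, rose by 0.45 (adjusted p = 0.000469) and 0.38 (adjusted p = 0.000589, both by that edgeR test). EIF1 rose by 0.34 (adjusted p = 0.0145 in that edgeR test) and did not pass without shCTRL replicate 1 or 2. EIF4E3, which encodes a cap-binding protein, fell from 13.8 ± 1.52 to 6.10 ± 0.283 CPM (SD, n = 3 per group), a change on the log2 scale of -1.18 (adjusted p = 3.45e-05 in that edgeR test). EIF4H, a helper of the eIF4A helicase, fell by 0.44 (adjusted p = 0.000219) and EIF2B3, of the exchange factor of eIF2, also by 0.44 (adjusted p = 0.00571, both by that edgeR test). EIF4H lies on chromosome 7, whose tested genes had a median of -0.43, and the 12 tested genes nearest to EIF2B3 had a median of -0.40. The part of these regions in the values was not tested.

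None of the 5 termination and recycling genes tested, ETF1 (0.05), GSPT1 (0.00), ABCE1 (0.06), MCTS1 (0.12) and DENR (0.12), passed edgeR's quasi-likelihood test, against 33.4% of all genes tested. GSPT2 was too low to be tested. At an unadjusted p under 0.05 the count was 0 with edgeR, 1 with DESeq2 and 0 with limma-voom.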
